A study of Bos taurus with 15 samples.

Results

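Bovine blastocysts cultured with freshly prepared oviductal extracellular vesicles (FeEV) were compared with blastocysts cultured without vesicles (Co). The comparison takes 10 of the 15 libraries of the study, 5 FeEV and 5 Co, chosen by the treatment in their labels. The remaining 5 libraries came from embryos that received the same kind of vesicles after freezing (FoEV). All embryos were fertilized and grown in vitro, and the labels place them at day 7 of culture while the methods of the study give 8 days. The vesicles had been isolated from the oviduct fluid of slaughterhouse cows judged to be in the postovulatory stage. Each library was made from 1 ng of total RNA of 1 pool of 8 to 14 embryos, and the pools with the best RNA quality were chosen for sequencing. The labels do not say whether pools came from separate culture rounds, so p-values measure the spread between pools, which may in part be technical. As each pool mixes whole embryos, fewer cells of a type and less RNA per cell cannot be told apart.

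The oviduct epithelium releases membrane vesicles that carry proteins, mRNAs and small RNAs, and the early embryo passes through this fluid before it reaches the uterus. At the blastocyst stage an outer trophectoderm, which gives rise to the placenta, surrounds an inner cell mass from which the embryo and the hypoblast form. Embryos grown in vitro never meet oviduct fluid unless it, or vesicles from it, is added to the medium, and the comparison of FeEV and Co addresses what such an addition changes in embryonic RNA.

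Gene counts summed to between 2136713 and 3808602 per library in FeEV and between 2571558 and 2977004 in Co, a difference within the spread (exact permutation test, two-sided, p = 0.540, n = 5 per group). Genes of ribosomal RNA took 20.7% ± 3.84 of the counts in FeEV and 21.8% ± 4.87 in Co (SD, exact permutation p = 0.683, n = 5 per group). No library stood apart, since the median Spearman correlation of a library with the others of its group ran from 0.961 to 0.972. The trophectoderm keratins KRT8 and KRT18 and the pluripotency factor POU5F1 were present in every library of these blastocysts. Of the hypoblast markers, GATA6 and PDGFRA were present throughout, whereas SOX17 had only 2 to 13 counts per library and did not pass the filter on low counts. Markers of other cell types differed in level. The oviduct secretory marker OVGP1 had 0 to 3 counts and the ciliated cell marker FOXJ1 0 to 4, the cumulus marker PTX3 0 to 1, and the leukocyte marker PTPRC 0 to 1. HBB, a globin gene, had 0 counts in all 10 libraries, which allows a share of up to 1.40 reads per 1000000 in the shallowest library. Other genes of red cells were not absent, since HBA, another globin gene, had 17 and 19 reads in Co replicates 1 and 2 and 0 or 1 in the other 8 libraries, and ALAS2, an enzyme of heme synthesis, had 10 to 52 reads in Co and 6 to 15 in FeEV, both named after their values were seen. The granulosa enzyme gene CYP19A1 had 38 to 73 counts in Co and 36 to 104 in FeEV. The 28 oviduct markers in the table summed to 87.2 to 136 reads per 1000000 counted reads in FeEV and 114 to 153 in Co, the 18 cumulus and granulosa markers to 205 to 386 and 235 to 414, and the 21 oocyte markers to 35.7 to 118 and 30.6 to 76.7. The 18 blood and immune markers summed to 104 to 123 in FeEV and 104 to 115 in Co, although PTPRC and HBB were near 0. The levels of these lists overlapped between the groups, and their part in the results was not tested.

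After scaling by TMM, 0 of 10832 genes passed an adjusted p of 0.05 in the comparison of FeEV and Co (edgeR quasi-likelihood test with Benjamini-Hochberg adjustment, 0%). The smallest adjusted p was 0.382. At an unadjusted p under 0.001, 10 genes (0.0923%) were found, 4 higher and 6 lower in FeEV. An unadjusted p under 0.05 was reached by 449 genes (4.15%), 198 higher (1.83%) and 251 lower (2.32%). The shares of 0.0923% and 4.15% did not exceed the thresholds of 0.001 and 0.05 themselves, the shares that evenly spread p-values would give. A likelihood ratio test on robust dispersions, named in the study's methods, gave 6 genes at an adjusted p under 0.05, namely NEAT1, CGNL1 and ZFP1 higher and CTSL, ZC3HAV1 and LOC618696 lower in FeEV, and the Wald test of DESeq2 gave 1 gene, NEAT1. LOC618696 was named after its values were seen. The median log2 fold change was 0.00 and 51.0% of genes were higher in FeEV. The 5th and the 95th percentile of the log2 fold changes were -0.35 and 0.33, and the median standard error of a log2 fold change was 0.16. In 58 genes (0.535%) the TMM-scaled counts per 1000000 reads (CPM) of all 5 FeEV libraries lay above those of all 5 Co libraries, and in 45 genes (0.415%) below them. The values that follow are therefore those of genes and groups with the smallest p, and none of them passed the adjusted threshold in the quasi-likelihood test. Log2 fold changes are given with the standard error of this fit, and an adjusted p that is not given was 0.903 or above.

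**Figure D1:**
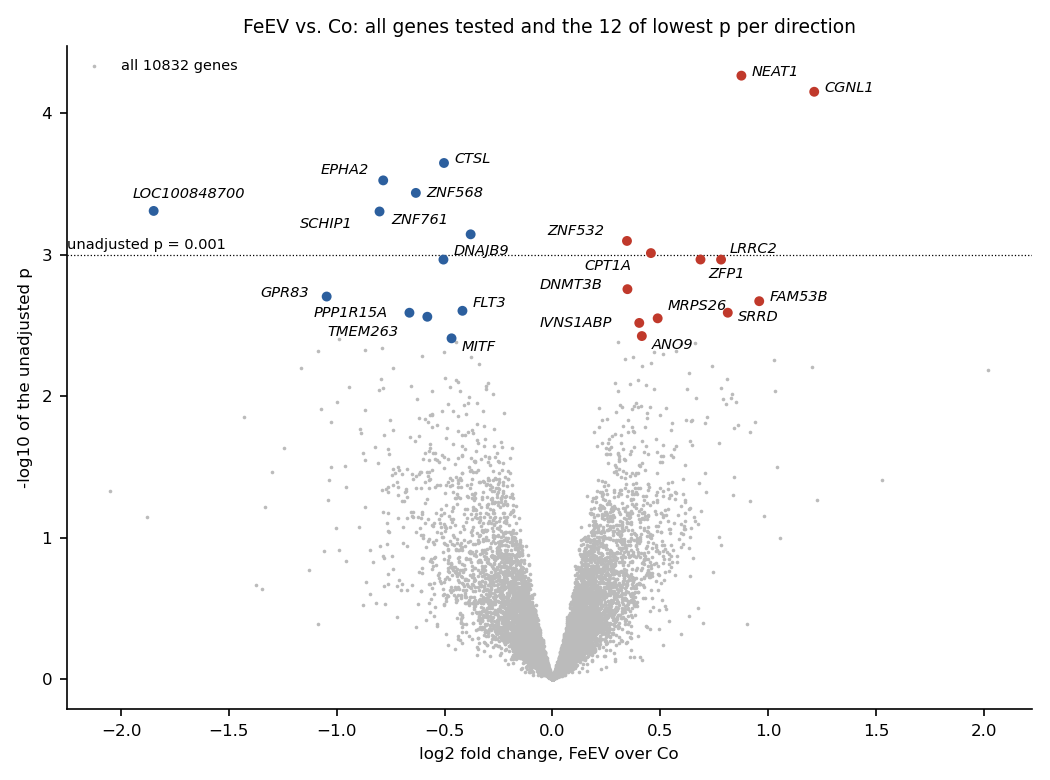
Each point is 1 of 10832 genes, with its log2 fold change of FeEV over Co on the x axis and -log10 of its unadjusted p on the y axis, and the 12 genes of lowest p in each direction are named in red (higher in FeEV) and blue (lower). A dotted line marks an unadjusted p of 0.001, which 10 genes pass, with NEAT1 and CGNL1 at the top of the higher side and CTSL and EPHA2 at the top of the lower side.

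The gene with the smallest p was NEAT1, a long noncoding RNA that forms the scaffold of paraspeckles, nuclear bodies that hold back RNAs and RNA-binding proteins. NEAT1 had 265, 415, 352, 272 and 353 CPM in Co replicates 1 to 5 and 573, 533, 776, 485 and 673 CPM in FeEV replicates 1 to 5. Every FeEV library lay above every Co library, and the log2 fold change was 0.88 ± 0.16 (SE, edgeR quasi-likelihood test, adjusted p = 0.382). The adjusted p of NEAT1 was 5.67e-05 with the robust dispersion and 6.37e-04 with DESeq2. CGNL1, which encodes paracingulin of the apical cell junctions, came next. CGNL1 had 4.01, 4.05, 4.19, 3.21 and 5.75 CPM in Co and 8.94, 7.80, 13.5, 10.5 and 8.66 CPM in FeEV, again without overlap (log2 fold change 1.21 ± 0.25, adjusted p = 0.382). Its raw counts were small, 8 to 14 in Co and 21 to 43 in FeEV.

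The other genes of lowest p on the higher side came from metabolism, chromatin and the mitochondrial ribosome. CPT1A, the enzyme that couples long-chain fatty acids to carnitine for entry into mitochondria, had 40.8, 57.7, 57.4, 45.0 and 48.0 CPM in Co and 78.1, 67.6, 67.9, 72.9 and 56.4 CPM in FeEV (log2 fold change 0.46 ± 0.12). Only FeEV replicate 5 fell within the range of Co. DNMT3B, which sets DNA methylation de novo, had 231, 257, 237, 201 and 206 CPM in Co and 238, 315, 286, 266 and 336 CPM in FeEV, and FeEV replicate 1 lay inside the range of Co (log2 fold change 0.35 ± 0.10). MRPS26, a protein of the small mitochondrial ribosomal subunit, had 21.1, 17.5, 19.03, 18.5 and 18.9 CPM in Co and 26.5, 25.6, 25.3, 25.0 and 30.4 CPM in FeEV, without overlap (log2 fold change 0.49 ± 0.15). The zinc finger gene ZNF532 also separated the groups, with 115, 117, 106, 107 and 124 CPM in Co and 141, 146, 148, 135 and 152 CPM in FeEV (log2 fold change 0.35 ± 0.09). ZFP1, another zinc finger gene, had a log2 fold change of 0.69 ± 0.18, with Co replicate 2 at 24.6 CPM inside the FeEV range and the other Co libraries between 13.1 and 16.1 CPM. LRRC2 (0.78 ± 0.21), FAM53B (0.96 ± 0.28), SRRD (0.81 ± 0.24), IVNS1ABP (0.40 ± 0.12) and ANO9 (0.41 ± 0.13), given as log2 fold changes with SE, completed the 12. In 6 of the 12 genes the groups did not overlap, beside 0.535% of all genes. The 12 were picked by their p in these same libraries, which favours such genes.

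On the lower side, the gene of smallest p was CTSL, which encodes the lysosomal protease cathepsin L. CTSL had 368, 251, 313, 286 and 389 CPM in Co and 190.1, 215, 266, 232 and 229.6 CPM in FeEV, where only FeEV replicate 3 reached above the lowest Co library (log2 fold change -0.50 ± 0.11, adjusted p = 0.766). EPHA2, a receptor tyrosine kinase that binds ephrins on neighbouring cells, had 24.1, 25.6, 18.4, 30.9 and 28.7 CPM in Co and 18.5, 13.7, 16.3, 16.4 and 9.22 CPM in FeEV (log2 fold change -0.78 ± 0.18, adjusted p = 0.766). FeEV replicate 1 just passed the lowest Co library, and the other 4 lay below all of Co. SCHIP1 had 11.7, 9.45, 11.6, 16.9 and 14.0 CPM in Co and 6.85, 6.68, 6.88, 7.29 and 8.38 CPM in FeEV, and its groups did not overlap (log2 fold change -0.80 ± 0.20, adjusted p = 0.766). Neither of the zinc finger genes ZNF568 and ZNF761 overlapped between the groups. ZNF568 had 20.4, 21.9, 21.0, 19.3 and 18.5 CPM in Co and 12.2, 14.1, 14.1, 13.2 and 11.7 CPM in FeEV (log2 fold change -0.63 ± 0.15, adjusted p = 0.766). ZNF761, listed as ZNF845 in the annotation the study used, had 67.8, 69.2, 62.6, 57.4 and 64.0 CPM in Co and 42.3, 51.2, 51.9, 49.2 and 52.2 CPM in FeEV (log2 fold change -0.38 ± 0.10). Zinc finger genes of this family have many near copies, so counts that reads could share between copies are uncertain, and the same holds for LOC100848700, which resembles the transporter gene ABCC4.

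LOC100848700 had the most extreme fold change among the 24 genes of lowest p, with 3.65, 13.2, 3.87, 8.03 and 6.98 CPM in Co and 2.38, 1.11, 2.82, 3.19 and 0.559 CPM in FeEV (log2 fold change -1.85 ± 0.45, adjusted p = 0.766). These CPM stand for 10 to 39 reads in Co and 2 to 9 in FeEV. DNAJB9, a chaperone partner of the endoplasmic reticulum, had 64.5, 43.5, 65.5, 62.2 and 68.1 CPM in Co and 42.6, 40.1, 46.9, 34.6 and 48.3 CPM in FeEV, with Co replicate 2 well below the other Co libraries (log2 fold change -0.51 ± 0.13). FLT3, a receptor tyrosine kinase known from blood progenitors, had 63.8, 55.3, 66.8, 69.8 and 57.5 CPM in Co and 59.6, 41.6, 51.0, 45.1 and 36.9 CPM in FeEV (log2 fold change -0.42 ± 0.12). The remaining genes were GPR83, a G protein-coupled receptor (-1.05 ± 0.30), PPP1R15A, a phosphatase subunit that restores translation after stress (-0.66 ± 0.20), TMEM263 (-0.58 ± 0.17) and the transcription factor MITF (-0.47 ± 0.15), all log2 fold changes with SE. In 6 of these 12 genes, too, the groups did not overlap, beside 0.415% of all genes, and these 12 were likewise picked by their p.

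**Figure D2:**
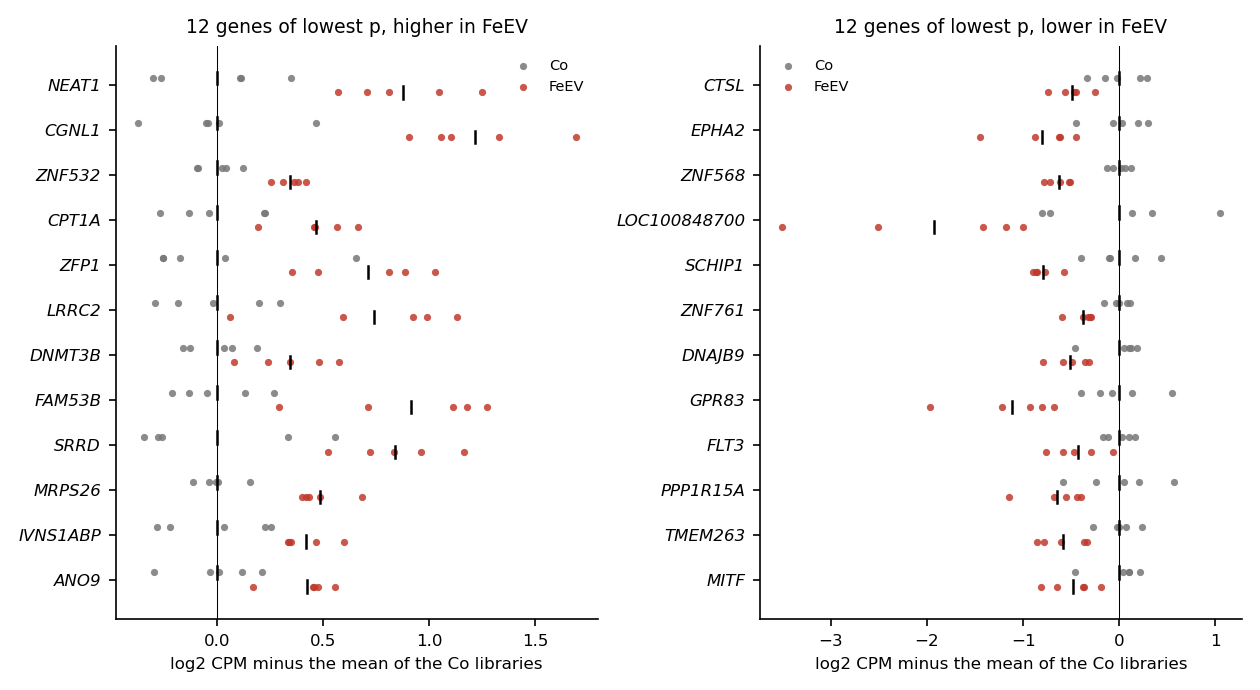
For the 12 genes of lowest p in each direction, the log2 CPM of each Co (grey) and FeEV (red) library is drawn relative to the mean of the 5 Co libraries, with a black tick at each group's mean. The groups do not overlap in 6 of 12 genes on either side, among them NEAT1 and CGNL1 (higher) and ZNF568 and SCHIP1 (lower). Over all genes the shares without overlap are 0.535% (higher) and 0.415% (lower), and the genes shown were picked by their p in these libraries.

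Genes that cells switch on within minutes of a growth factor or stress signal, the immediate early genes, leaned to the lower side. Of 28 tested members of this list, 24 were lower and 4 higher in FeEV, with a median log2 fold change of -0.20, beside 51.0% higher and a median of 0.00 over all genes. An unadjusted p under 0.05 was reached by 7 members on the lower side and 0 on the higher side, beside 2.32% and 1.83% of all genes, and none passed the adjusted threshold. The members that did so and are not covered by the naming rule were picked after their values were seen. Without Co replicate 1, 8 members were higher, and without FeEV replicate 5 the median was -0.13. With the replicate block by library number, a fit with a term for the library number in the labels, the median was -0.097 and 3 members had an unadjusted p under 0.05.

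FOS and JUNB, subunits of the AP-1 transcription factor, and EGR1, an early response zinc finger factor, were among the 7. FOS had 60.5, 27.7, 46.1, 46.6 and 66.1 CPM in Co and 39.3, 30.5, 28.2, 27.8 and 16.8 CPM in FeEV (log2 fold change -0.79 ± 0.24). Co replicate 2 lay below 4 of the 5 FeEV libraries, while the other 4 Co libraries lay above all of FeEV. JUNB had 33.9, 18.9, 29.7, 29.7 and 23.0 CPM in Co and 22.4, 18.2, 17.5, 17.8 and 13.1 CPM in FeEV (log2 fold change -0.60 ± 0.20). EGR1 had 31.0, 9.11, 16.4, 14.9 and 20.5 CPM in Co and 16.7, 11.9, 7.19, 14.1 and 4.75 CPM in FeEV, so that its groups overlapped widely (log2 fold change -0.76 ± 0.36). Co replicate 2 was the lowest Co library in all of FOS, JUNB and EGR1, and FeEV replicate 5 the lowest FeEV library. FOSL2, a further AP-1 subunit, had 45.9, 42.5, 43.5, 52.6 and 50.5 CPM in Co and 41.1, 41.2, 41.3, 40.1 and 31.8 CPM in FeEV, without overlap (log2 fold change -0.27 ± 0.12).

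CCN1, a secreted matrix protein induced by serum and by YAP, had 82.0, 50.9, 83.2, 46.6 and 53.8 CPM in Co and 54.5, 33.8, 36.3, 29.6 and 34.4 CPM in FeEV (log2 fold change -0.74 ± 0.24). FeEV replicate 1 stood above the other 4 FeEV libraries. SGK1, a kinase that regulates ion transport, had 210.0, 160.3, 227, 204 and 203 CPM in Co and 131, 196, 150.5, 124 and 170.4 CPM in FeEV (log2 fold change -0.38 ± 0.12). IER3 had 78.4, 38.5, 59.7, 71.8 and 58.3 CPM in Co and 53.3, 26.4, 42.9, 44.2 and 39.1 CPM in FeEV (log2 fold change -0.57 ± 0.22). The other members did not reach an unadjusted p of 0.05. Of these, MCL1, which protects from apoptosis, did not overlap between the groups, with 241 to 259 CPM in FeEV and 261 to 288 CPM in Co (log2 fold change -0.11 ± 0.07). CCN2, a relative of CCN1, had a log2 fold change of -0.60 ± 0.38 and FOSL1, an AP-1 subunit, of -0.42 ± 0.34, both with overlap. The members in this paragraph other than CCN1 were picked after their values were seen. The log2 fold change was -0.27 for JUN, -0.07 for ATF3 and -0.02 for MYC, and the 4 members on the higher side were KLF2 (0.39), HBEGF (0.17), KLF10 (0.08) and ZFP36L2 (0.01).

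**Figure D3:**
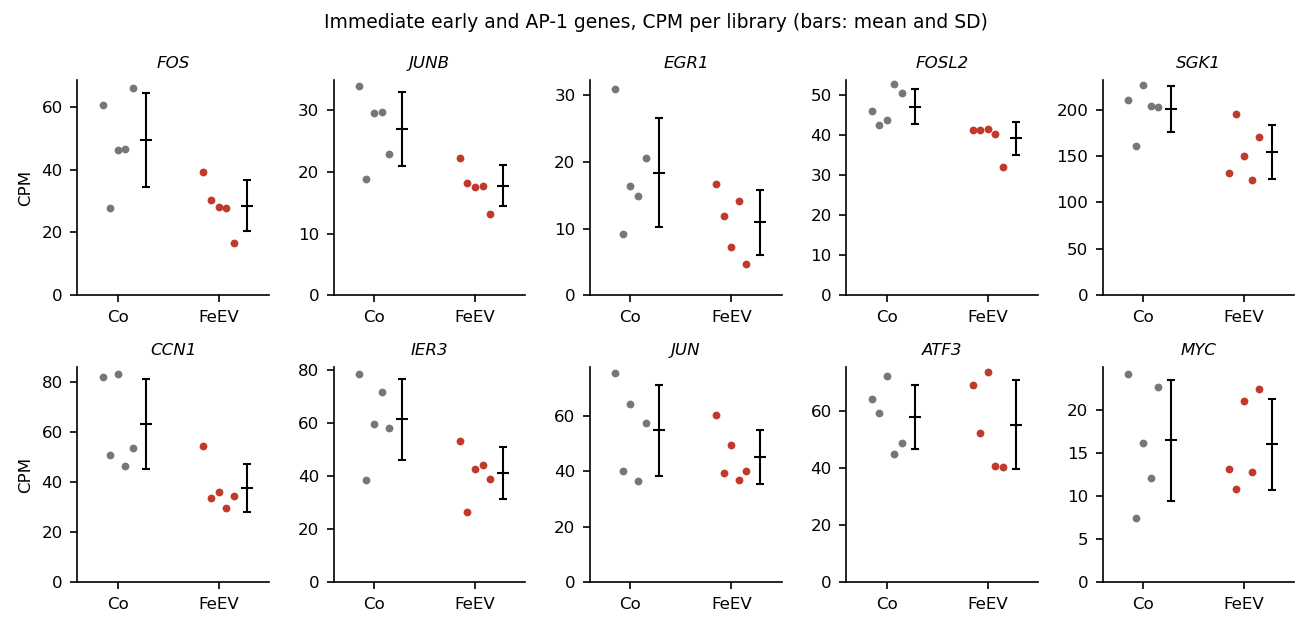
CPM of 10 immediate early and AP-1 genes in each Co (grey) and FeEV (red) library, replicates 1 to 5 from left to right, with the mean and SD as bars. FOS, JUNB, EGR1, FOSL2, SGK1, CCN1 and IER3 have lower means in FeEV with an unadjusted p under 0.05, while JUN, ATF3 and MYC do not reach it.

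Related signalling lists held fewer single genes, and their counts stand beside 51.0% of all genes higher in FeEV. Their members below an unadjusted p of 0.05, all lower, stand beside 2.32% of all genes. Of 13 genes that feed back on ERK signalling, 10 were lower and 1 had an unadjusted p under 0.05, the transcription factor ETS2 (log2 fold change -0.38 ± 0.17). The median of this list was -0.15, and it ran from -0.33 to -0.06 over the 19 alternative settings. Of 25 receptor tyrosine kinases and ephrins, 15 were lower, and the 2 below an unadjusted p of 0.05 were EPHA2 and FLT3. Their median of -0.11 was -0.031 without Co replicate 1 and -0.0071 with the replicate block by library number. Among 29 genes of the Hippo pathway, which reads cell contact and shape and sets the trophectoderm apart, 18 were lower and 3 had an unadjusted p under 0.05 on the lower side. These were CCN1, THBS1 (-0.89 ± 0.34) and MOB1A (-0.30 ± 0.10), the last 2 picked after their values were seen. The median of the Hippo list was -0.03 and crossed 0 among the alternatives.

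Genes of the amino acid response, which the transcription factor ATF4 switches on when amino acids run short or the endoplasmic reticulum is stressed, leaned to the higher side. Of 36 tested members 26 were higher and 10 lower, and the median log2 fold change was 0.17, beside 51.0% higher over all genes. An unadjusted p under 0.05 was reached by 5 members on the higher side (13.9%) and 2 on the lower side (5.56%), beside 1.83% and 2.32% of all genes. ASNS, asparagine synthetase, had 121, 132, 123, 123 and 107 CPM in Co and 179, 170.4, 164, 202 and 159 CPM in FeEV, without overlap (log2 fold change 0.53 ± 0.19). SLC7A5, a carrier of large neutral amino acids, had 98.8, 140.0, 99.3, 121 and 112 CPM in Co and 143, 211, 137, 199 and 153 CPM in FeEV (log2 fold change 0.56 ± 0.23). For SLC7A5 the highest Co library was replicate 2 and the highest FeEV library was also replicate 2. PSAT1, an enzyme of serine synthesis, did not reach the unadjusted threshold of 0.05 although its groups did not overlap, with 52.9, 68.8, 62.9, 43.3 and 59.9 CPM in Co and 96.6, 100.3, 71.6, 73.3 and 93.9 CPM in FeEV and a log2 fold change of 0.60 ± 0.29.

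The other members on the higher side with an unadjusted p under 0.05 were the glycine carrier SLC6A9 (1.04 ± 0.45), the glutathione-degrading enzyme CHAC1 (0.71 ± 0.34) and the proline synthesis enzyme ALDH18A1 (0.43 ± 0.19). SLC6A9 and CHAC1 rested on low levels, below 14 CPM in every library. Members of the list pointed in both directions. PPP1R15A and SLC38A2, another amino acid carrier, were lower. SLC38A2 had 314, 307, 266, 346 and 294 CPM in Co and 267, 268, 209.9, 292 and 207 CPM in FeEV (log2 fold change -0.30 ± 0.13). ATF4 itself had 209.6 ± 21.2 CPM in Co and 251 ± 13.8 CPM in FeEV (mean and SD, n = 5), with a log2 fold change of 0.26 ± 0.15, and DDIT3, a stress factor downstream of it, 0.22 ± 0.19. List members other than ASNS and PPP1R15A were named after their values were seen. The number on the higher side below the unadjusted threshold moved with the libraries used. With the replicate block by library number it was 15, with 0 on the lower side, and with the robust dispersion it was 10. It was 2 without Co replicate 1 or 3, 3 without Co replicate 4 or FeEV replicate 1, 1 without FeEV replicate 4 and 13 when only the Co and FeEV libraries were fitted.

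**Figure D4:**
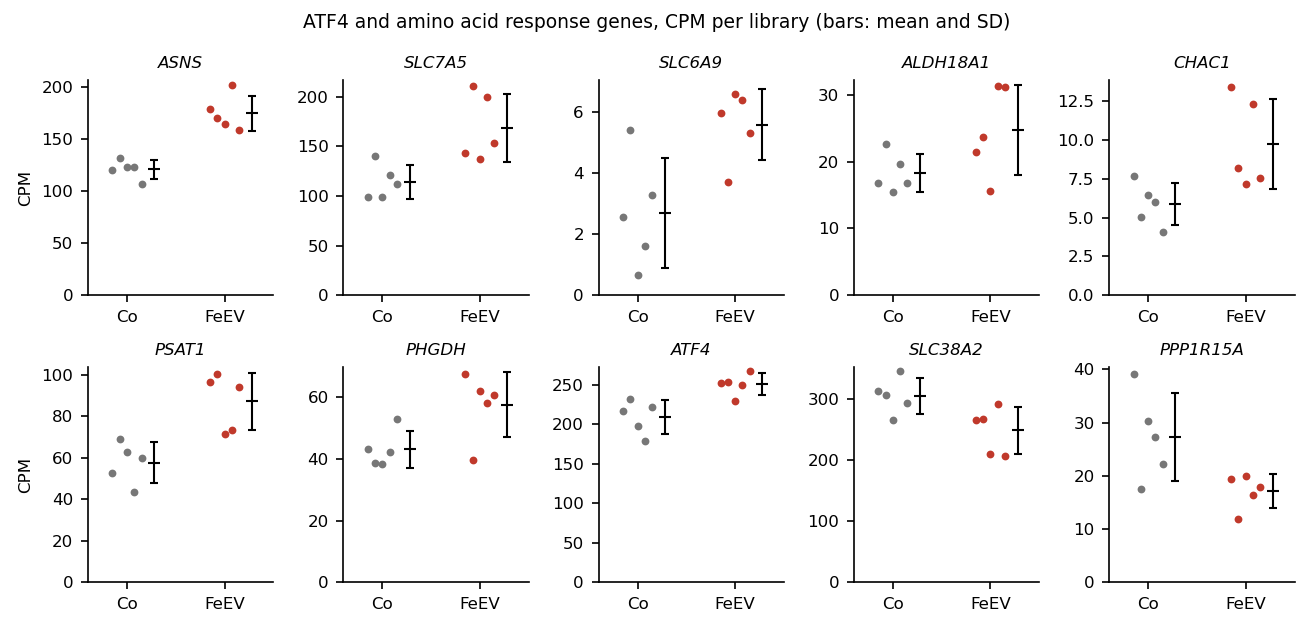
CPM of 10 genes of the ATF4 and amino acid response in each Co (grey) and FeEV (red) library, replicates 1 to 5 from left to right, with the mean and SD as bars. ASNS and PSAT1 show no overlap between the groups, whereas SLC38A2 and PPP1R15A have lower means in FeEV.

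The enzymes that charge tRNAs with amino acids, several of which respond to the same factor, counted 15 higher and 5 lower of 20, with a median of 0.07. Only YARS1, for tyrosine, had an unadjusted p under 0.05 (log2 fold change 0.31 ± 0.13), which is 5.0% of the list beside 1.83% of all genes. Among the 29 tested amino acid carriers, 15 were higher and 14 lower. Of these 3 and 2 were below an unadjusted p of 0.05 (10.3% and 6.90%, beside 1.83% and 2.32% of all genes). SLC7A5, SLC6A9 and SLC38A2 are among them and were already counted in the amino acid response list. The carrier of lowest p was SLC7A7, which lay on the lower side (log2 fold change -0.31 ± 0.13).

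Mitochondrial genes showed small differences that mostly pointed the same way. Of 80 tested subunits of the respiratory chain and ATP synthase, 66 were higher in FeEV (82.5%, beside 51.0% of all genes), with a median log2 fold change of 0.06. Only 4 of them (5.0%, beside 1.83% of all genes) had an unadjusted p under 0.05, all on the higher side. COX7C, a subunit of cytochrome c oxidase, led them, with 101, 107, 80.6, 74.3 and 99.7 CPM in Co and 124.6, 98.0, 111, 118 and 106 CPM in FeEV (log2 fold change 0.27 ± 0.11). The other 3 belonged to complex I, which passes electrons from NADH, namely NDUFA7 (0.33), NDUFS7 (0.34) and NDUFB10 (0.25), and were named after their values were seen. The count changed with the libraries used. Without Co replicate 3, 31 subunits were lower and 0 had an unadjusted p under 0.05, and without Co replicate 4 these were 25 and 0. Without FeEV replicate 2, 4 or 5, 20 or 21 subunits were lower and 1 had an unadjusted p under 0.05. Members of such a list share their libraries, so 1 library with a low level shifts all of them at once.

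Of 77 proteins of the mitochondrial ribosome, 58 were higher (75.3%) with a median of 0.07. An unadjusted p under 0.05 was reached by 4 (5.19%, beside 1.83% of all genes), all on the higher side. Beside MRPS26, MRPL28 separated the groups, with 13.5, 11.5, 11.3, 12.04 and 12.7 CPM in Co and 15.2, 16.3, 18.5, 15.0 and 17.3 CPM in FeEV (log2 fold change 0.44 ± 0.16). MRPL41 (0.55 ± 0.21) and MRPL58 (0.29 ± 0.14) were the remaining members, and all but MRPS26 were named after their values were seen. The median of the list ran from 0.06 to 0.10 over the alternatives. Proteins of the cytosolic ribosome gave another picture, with 34 of 83 higher, a median of -0.03 and 1 member below an unadjusted p of 0.05, RPS4Y1 (log2 fold change -0.19 ± 0.09).

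In fatty acid oxidation, 19 of 33 genes were higher, and the 3 with an unadjusted p under 0.05 (9.09%, beside 1.83% of all genes) were all higher. These were CPT1A, the electron carrier subunit ETFB (0.32 ± 0.13) and the acyl-CoA dehydrogenase ACAD9 (0.31 ± 0.15), the last 2 named after their values were seen. Their list had a median of 0.02, which was -0.01 without Co replicate 3, when 1 member remained below the unadjusted threshold. In glycolysis and the pentose phosphate path, 19 of 36 members were lower and 17 higher. The member of lowest p was PFKFB3, which makes an activator of glycolysis, with 44.5, 27.3, 43.2, 46.2 and 51.3 CPM in Co and 30.4, 16.3, 37.5, 19.6 and 37.7 CPM in FeEV (log2 fold change -0.56 ± 0.21). Genes of cholesterol synthesis and uptake had 19 of 27 higher, a median of 0.08 and 0 below an unadjusted p of 0.05 in the edgeR test. This direction rested on FeEV replicate 5, without which 8 were higher and 19 lower with a median of -0.048. With the replicate block by library number 12 were higher and 15 lower.

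Lysosomal genes were lower by small amounts. Of 34 tested enzymes, cathepsins and membrane proteins of the lysosome, 30 were lower (88.2%) with a median of -0.09. The member of lowest p was CTSL. Other cathepsins had log2 fold changes near 0, such as -0.13 for CTSB, -0.10 for CTSD and -0.04 for CTSH. Without Co replicate 1, 13 members were higher, and without FeEV replicate 2 also 13.

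Targets of p53, the factor that answers DNA damage, had 18 of 22 members lower with a median of -0.16. An unadjusted p under 0.05 was reached by 3 members (13.6%, beside 2.32% of all genes), all lower. They were the kinase gene PLK2 (-0.72 ± 0.32), the nuclease gene AEN (-0.21 ± 0.10) and ZMAT3 (-0.44 ± 0.21). AEN and ZMAT3 were named after their values were seen. PLK2 had 137, 129, 115, 144 and 99.7 CPM in Co and 113, 49.0, 81.3, 100.2 and 37.7 CPM in FeEV, with FeEV replicates 2 and 5 far below the other libraries. Without FeEV replicate 2 or 5, or Co replicate 2 or 4, 0 members had an unadjusted p under 0.05 in the edgeR test, and without Co replicate 3 or 5 there was 1. CDKN1A, the p21 inhibitor of the cell cycle, had a log2 fold change of -0.38 ± 0.25 and MDM2, which degrades p53, -0.23 ± 0.18. Of 24 pro-apoptotic genes 13 were lower, and APAF1, the core of the apoptosome, was the member of lowest p (log2 fold change -0.32 ± 0.13).

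Stress genes of the endoplasmic reticulum were lower in 25 of 37 cases, with a median of -0.07 that reached 0.01 without FeEV replicate 2. An unadjusted p under 0.05 was reached by 2 members (5.41%, beside 2.32% of all genes), both lower. Of these, DNAJB9 was the only one at an unadjusted p under 0.01. Among 15 antiviral and interferon-stimulated genes, 10 were lower and 2 (13.3%, beside 2.32% of all genes) had an unadjusted p under 0.05, both lower. Without Co replicate 1 these counts were 8 and 1. ZC3HAV1, the zinc finger antiviral protein that destroys viral RNA, had 47.0, 25.3, 37.7, 40.1 and 48.8 CPM in Co and 23.8, 14.5, 19.1, 17.8 and 23.7 CPM in FeEV, without overlap (log2 fold change -0.99 ± 0.29). CPEB4, which binds mRNAs, also separated the groups with 107, 94.8, 122, 107 and 105 CPM in Co and 84.6, 64.2, 91.6, 72.0 and 79.3 CPM in FeEV (log2 fold change -0.45 ± 0.14). Its list of 38 translational repressors split into 22 higher and 16 lower.

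The protein genes of the paraspeckle had smaller fold changes than NEAT1. Of 24 tested members of the paraspeckle list, NEAT1 included, 15 were higher and 9 lower, with a median of 0.02. The core proteins NONO (0.03 ± 0.11) and SFPQ (-0.15 ± 0.10) did not reach an unadjusted p of 0.05. PSPC1 (0.25 ± 0.12) and HNRNPH3 (0.23 ± 0.11) were higher and did reach it. With NEAT1 this made 3 of the 24 (12.5%), beside 1.83% of all genes. The number was 1 with DESeq2, with only the Co and FeEV libraries, and with the replicate block by library number. It was also 1 without Co replicate 1, 4 or 5 and without FeEV replicate 1 or 2. The paraspeckle proteins were named after their values were seen. Of 27 genes that set or remove DNA methylation, DNMT3B was the only one with an unadjusted p under 0.05 (3.70%, beside 1.83% of all genes). The 221 tested zinc finger genes named ZNF or ZFP were spread over both sides, 127 higher and 94 lower. Of these 5 and 7 were below an unadjusted p of 0.05 (2.26% and 3.17%, beside 1.83% and 2.32% of all genes). Small RNA genes of the nucleolus and spliceosome did not lean to the higher side. The 85 snoRNA genes split into 40 higher and 45 lower, and their median was -0.05 in FeEV vs. Co. SNORD15A was the snoRNA gene of lowest p (0.94 ± 0.34), with FeEV replicate 5 at 49.2 CPM and all other FeEV libraries between 12.8 and 23.2 CPM.

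XIST, the RNA that coats the inactive X chromosome of female cells, was higher in FeEV pools on average, with 134, 85.4, 212, 194 and 155 CPM in Co and 216, 297, 211, 222 and 188 CPM in FeEV (log2 fold change 0.54 ± 0.36). In FeEV, 3 of 5 libraries lay above the highest Co library. The labels do not give the sex of the embryos in a pool, and the part of sex in the differences between FeEV and Co was not tested. XIST was named after its values were seen.

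Lineage markers gave no difference beyond the spread for most genes. KRT8 had 4428, 3888, 4551, 3613 and 4851 CPM in Co and 4765, 3705, 5323, 4517 and 5719 CPM in FeEV (log2 fold change 0.17 ± 0.11). KRT18 (0.26 ± 0.13), GATA3 (0.16 ± 0.08), TFAP2C (0.10 ± 0.11) and CDX2 (0.10 ± 0.21), transcription factors and keratins of the trophectoderm, were slightly higher on average, except that CDX2 was at -0.15 without FeEV replicate 5. Over the whole list of 22 trophectoderm markers, 14 were lower, and the 2 members with an unadjusted p under 0.05 (9.09%, beside 2.32% of all genes) were lower too. They were ATP1B1, a subunit of the sodium pump that fills the blastocoel (-0.56 ± 0.22), and the regulator ID2 (-0.55 ± 0.25), named after its values were seen. The median of the list, -0.09, crossed 0 when single libraries were left out.

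In the inner cell mass list the pluripotency factors differed in direction, with 8 of 17 members higher and 9 lower. An unadjusted p under 0.05 was reached by 1 member on either side, DNMT3B (higher) and NANOG (lower). Each is 5.88% of the list, beside 1.83% and 2.32% of all genes. NANOG had 91.2, 78.6, 46.4, 94.3 and 91.5 CPM in Co and 38.4, 40.5, 64.1, 50.1 and 67.3 CPM in FeEV (log2 fold change -0.62 ± 0.26), and Co replicate 3 was the only Co library within the FeEV range. Without Co replicate 1, 2 or 4, without FeEV replicate 1 or 2, and with the replicate block by library number, 0 members of the list were below this threshold on the lower side in the edgeR test. POU5F1 had 168 ± 8.42 CPM in Co and 185 ± 25.6 CPM in FeEV (mean and SD, n = 5; log2 fold change 0.13 ± 0.11), and SOX2 had a log2 fold change of -0.32 ± 0.26. Of 18 hypoblast markers 14 were lower and 4 higher, with a median of -0.15, and 0 had an unadjusted p under 0.05 in the edgeR test. That median was -0.077 without Co replicate 4, and also with the replicate block by library number. GATA6 had a log2 fold change of -0.11 ± 0.09, PDGFRA of -0.19 ± 0.27 and GATA4 of 0.09 ± 0.34. In the list of junction genes CGNL1 was the only one of 40 members with an unadjusted p under 0.05 (2.5%, beside 1.83% of all genes). The list as a whole was split into 17 higher and 23 lower.

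Few markers of other cell types passed the filter, 6 of oviduct, 6 of cumulus and granulosa, 3 of blood and 3 of oocytes. An unadjusted p under 0.05 was reached by 2, 1, 1 and 0 of them, all lower in FeEV, beside 2.32% of all genes. The markers below this p were FSHR of granulosa cells (-0.55 ± 0.23), the keratin KRT7 of the oviduct list (-0.39 ± 0.14), MUC16 of the same list (-0.88 ± 0.36) and VWF of the blood list (-0.54 ± 0.21). KRT7 is also a trophectoderm keratin. PAX8, another oviduct marker, had 9.65 ± 2.00 CPM in Co and 7.12 ± 1.79 CPM in FeEV (mean and SD, n = 5; log2 fold change -0.43 ± 0.24), and CYP19A1, the aromatase, 0.23 ± 0.27. MUC16 was named after its values were seen. With only 6 of the 28 oviduct markers above the filter, the absence of a higher one below this p says little. A part of vesicle RNA in these levels was not tested.

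**Figure D5:**
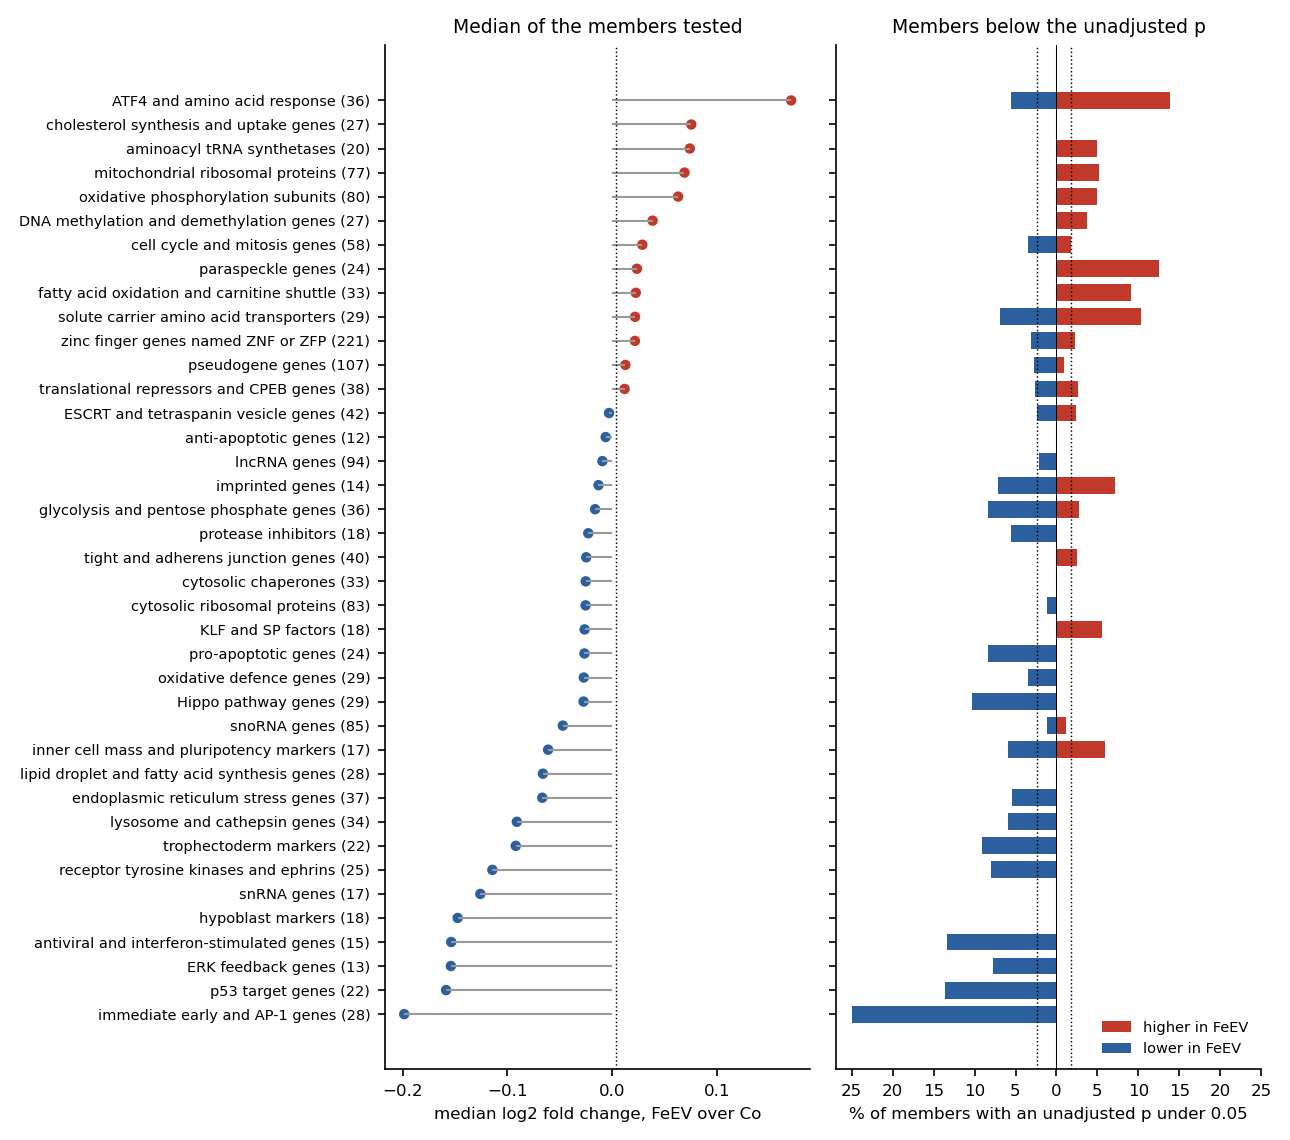
Left, the median log2 fold change of FeEV over Co in each gene list with at least 10 tested members (number in brackets), with the median of all genes as a dotted line. Right, the share of members with an unadjusted p under 0.05, higher (red) or lower (blue), with dotted lines at 1.83% and 2.32%, the shares over all genes. The immediate early list lies lowest at -0.20 and the amino acid response list highest at 0.17.

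The medians of most other lists lay close to 0. In the list of vesicle formation genes (ESCRT subunits and tetraspanins), 21 of 42 were higher and 21 lower, and STAM2, which sorts receptors into endosomes, was the member of lowest p (-0.25 ± 0.11). Cell cycle and mitosis genes had 35 of 58 higher and a median of 0.03, with CDK6, a kinase of the first cell cycle phase, as the member of lowest p (-0.76 ± 0.31). Imprinted genes split into 6 higher and 8 lower, with PEG3 at -0.40 ± 0.18. In the remaining lists that held one, the member of lowest p was KLF11 of the KLF and SP factors (0.37), GCLC of the oxidative defence genes (-0.25), SERPINB9 of the protease inhibitors (-1.03), the noncoding RNA gene LOC100174924 (-0.38) and the pseudogene LOC789867 (-0.87), all as log2 fold changes. Anti-apoptotic genes, cytosolic chaperones and genes of lipid droplets and fatty acid synthesis had 0 members with an unadjusted p under 0.05 in the edgeR test.

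For the genes of lowest p, the fold changes of FoEV-treated embryos from the same fit are given beside those of FeEV-treated embryos. Both comparisons use the same 5 Co libraries, so a shift of Co moves both. The log2 fold change of FoEV vs. Co was 0.94 for NEAT1 (adjusted p = 0.0578), 0.60 for CGNL1 (adjusted p = 0.26), 0.23 for CPT1A (adjusted p = 0.362) and 0.12 for ZNF532 (adjusted p = 0.541). On the lower side it was -0.32 for CTSL (adjusted p = 0.195), -0.67 for EPHA2 (adjusted p = 0.12), -0.62 for FOS (adjusted p = 0.23) and -0.38 for LOC100848700 (adjusted p = 0.665). Among list medians, the immediate early genes were at -0.20 in FoEV and -0.20 in FeEV, the amino acid response genes at 0.24 and 0.17, the respiratory chain subunits at 0.18 and 0.06, and the snoRNA genes at 0.85 and -0.05. No gene differed between FoEV and FeEV at an adjusted p under 0.05 in the edgeR test (lowest adjusted p = 0.447).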

How the data were processed

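Low-input total RNA-seq libraries of embryo pools were grouped by the treatment in the labels. The authors deposited read counts per gene without normalization, for 34773 genes and for the 10832 genes kept after their filter on low counts, as mapped to ARS-UCD1.2. The methods name QuasR Qcount as the counter, whereas the submitters' processing notes name Trim Galore 0.4.3.1, HISAT2 2.1.0 and featureCounts 1.6.3. Mapping and counting were not repeated. Libraries were strand-selected, but whether counting used the strand is not given in the sources used here, so overlapping antisense genes cannot be told apart.

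The filtered counts were scaled by TMM in edgeR 4.0.16 (R 4.3.3) and tested with estimateDisp, glmQLFit (robust) and glmQLFTest in 1 fit over the 15 libraries with the contrast of FeEV and Co. P-values were adjusted after Benjamini-Hochberg over all 10832 genes. CPM are TMM-scaled. The alternatives were a robust dispersion with a likelihood ratio test, DESeq2 1.42.0, RLE factors, other filters, subsets of libraries, replicate blocks and removal of rRNA genes. The scripts were tested on simulated data. Total counts and rRNA shares were compared with two-sided exact permutation tests over 252 assignments (Python 3.11.15, scipy 1.17.1), whose smallest p is 0.00794.

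Named genes are every gene at an adjusted p under 0.05, the 12 of lowest p in each direction, the member of lowest p in each of 45 gene lists where under 0.05, defining cell type markers, and NEAT1, FOS, CCN1, EPHA2, ASNS, CPT1A, DNMT3B, CTSL and CGNL1. Others are said to be named after their values were seen. The members and lists were chosen with earlier results of these data known, and lists are described without a test. Symbols came from the ARS-UCD2.0 annotation by gene identifier (10709 of 10832 matched). Coordinates, sequences and promoter motifs were not analysed here. Intervals and limits from counts cover counting error only, as PCR copies of a molecule cannot be recognized here. A result for 1 gene is not reported here.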

Additional observations from a re-analysis of the deposited data

Results flagged for a closer look

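Each gene named by rule was examined in the 5 Co and the 5 FeEV libraries for 1 library far from the other 4, which gave 10 cases in 126 groups of 5. Chance alone marks about 1 in 20 such groups.

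In Co, replicate 2 was far above the others for ZFP1 (24.6 CPM, others 13.1 to 16.1) and far below them for DNAJB9 (43.5 CPM, others 62.2 to 68.1). Replicate 4 was above the others for APAF1 (54.2 CPM, others 37.9 to 41.0), and replicate 1 for POU5F1 (183 CPM, others 163 to 167). Among FeEV libraries, replicate 5 was above the others for MRPS26 (30.4 CPM, others 25.0 to 26.5), SNORD15A (49.2 CPM, others 12.8 to 23.2) and CDX2 (55.9 CPM, others 25.6 to 33.7). FeEV replicate 1 was above the others for CCN1 (54.5 CPM, others 29.6 to 36.3), and replicate 2 for SOX2 (39.7 CPM, others 21.2 to 25.0) and CYP19A1 (38.6 CPM, others 14.1 to 18.8). The Co library nearest to FeEV was the one set apart for ZFP1 and DNAJB9. What set these libraries apart was not tested.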

How the results depend on the processing

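The comparison of FeEV and Co was repeated under 19 settings. The number of genes at an adjusted p under 0.05, 0 in the quasi-likelihood test, was 6 with the robust dispersion and likelihood ratio test, 1 with DESeq2 and 13 without a filter on low counts. At an unadjusted p under 0.001, 10 genes became 37, 17 and 61 under these settings, 16 with only the Co and FeEV libraries, and 5 to 17 when single libraries were left out. The libraries that moved this count by more than 1.5 times were Co replicate 1 (6 genes without it), Co replicate 2 (17), Co replicate 5 (5), and FeEV replicates 1 and 3 (6 each). At an unadjusted p under 0.05, 449 genes became 1136 without a filter. The causes were not tested. Size factors of the RLE kind, a mean CPM of at least 10 and removal of rRNA genes kept these counts within 1.5 times.

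Whether replicate numbers pair the samples is not stated in the labels. For Co and FeEV libraries with the same title number, the correlation of their deviations ran from -0.214 to 0.42 (5 pairs, mean 0.138). With the same library number it ran from 0.063 to 0.158 (3 pairs, mean 0.0967). Between libraries with different numbers the means were -0.0344 for title numbers and -0.0131 for library numbers, both with a lowest value of -0.32. So few pairs cannot decide whether the numbers mark a shared batch. With a replicate block by title number, 18 genes had an unadjusted p under 0.001 and 0 an adjusted p under 0.05. A replicate block by library number moved the median of the amino acid response list to 0.35, of the inner cell mass markers to 0.058, of lncRNA genes to -0.088, and of receptor tyrosine kinases to -0.0071. That last median was -0.020 and that of the blood markers -0.18 at a mean CPM of at least 10. With single libraries left out, the medians ran from -0.33 to -0.055 for ERK feedback genes, from -0.55 to -0.20 for blood markers, and from -0.071 to 0.061 for amino acid carriers.

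Of 63 genes named by rule, 60 kept their direction under every setting in which they were fitted. With single libraries left out, CDX2 ran from -0.15 (without FeEV replicate 5) to 0.25, GATA4 from -0.14 (without Co replicate 2; -0.11 without FeEV replicate 1) to 0.46, and CYP19A1 from -0.094 (without FeEV replicate 2) to 0.35. CYP19A1 was at -0.046 with the replicate block by library number. The difference in total counts, 196847, ran from -7716 to 410256 with single libraries left out (chosen after seeing the data), and without FeEV replicate 4 the exact permutation p was 0.0476. Depth limits genes such as CGNL1 and LOC100848700, which rest on few reads. The planned search for promoter motifs was not run.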

Other observations

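Without a filter on low counts, 25470 genes entered the edgeR test, and 4 of the 13 genes at an adjusted p under 0.05 were outside the filtered table. All 4 were lower in FeEV and were named after their values were seen. HBA, a globin gene, had 17 and 19 reads in Co replicates 1 and 2 and 0 or 1 read in the other 8 libraries (log2 fold change -3.53, adjusted p = 0.0235). ALAS2, the first enzyme of heme synthesis in red cells, passed the filter and had 52, 10, 14, 31 and 13 reads in Co and 12, 9, 15, 6 and 7 in FeEV (log2 fold change -1.43, adjusted p = 0.0327 without a filter). Co replicate 1, with 17 HBA reads, had the most ALAS2 reads in Co. Co replicate 2, with 19 HBA reads, had the fewest. Whether the HBA and ALAS2 reads share a source was not tested. C3AR1, a complement receptor, had 16, 3, 4, 8 and 9 reads in Co and 0, 2, 2, 2 and 0 in FeEV (log2 fold change -2.75, adjusted p = 0.0328). The noncoding LOC100848634 had 6, 3, 18, 3 and 14 reads in Co and 5, 1, 0, 0 and 0 in FeEV (log2 fold change -2.89, adjusted p = 0.00878), and an unnamed gene had 17 and 15 reads in Co replicates 2 and 3 and 0 or 1 elsewhere (log2 fold change -3.81, adjusted p = 0.0235). These values rest on few reads in 2 to 5 pools.

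CXCL16, a chemokine, and LONRF2 were 2 further genes at an adjusted p under 0.05 without a filter. CXCL16 had 72, 18, 40, 23 and 32 reads in Co and 20, 15, 31, 13 and 16 in FeEV (log2 fold change -1.09, adjusted p = 0.0257). LONRF2 had 52, 45, 75, 51 and 57 reads in Co and 133, 91, 114, 56 and 152 in FeEV (log2 fold change 0.81, adjusted p = 0.0257). In the filtered table neither passed (adjusted p = 1.00 and 1.00).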
